A study of Mus musculus with 24 samples.

Results

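The 37 genes described here are a module of interferon response genes, named by symbol: Isg15, Ifit1, Ifit2, Ifit3, Mx1, Mx2, Oas1a, Oas2, Oas3, Oasl1, Oasl2, Rsad2, Irf1, Irf7, Irf9, Stat2, Bst2, Usp18, Ifi44, Ifi35, Ifih1, Ddx58, Dhx58, Parp9, Parp14, Dtx3l, Zbp1, Gbp2, Gbp3, Gbp7, Igtp, Irgm1, Xaf1, Cmpk2, Rtp4, Trim25 and Eif2ak2. All 37 were found among the 27179 gene identifiers of the count table. Libraries came from 3 lymphocyte populations sorted from the colon of 8 mice: group 2 innate lymphoid cells (ILC2), CD4 T cells positive for the reporter of the neuromedin U receptor NMUR1 (NMUR1+) and CD4 T cells negative for it (NMUR1-). Mice 1 to 4 were injected intraperitoneally with neuromedin U (NMU), a neuropeptide that activates ILC2 through NMUR1, and mice 5 to 8 with phosphate-buffered saline (PBS). All 8 mice, controls included, carried the Nmur1-iCre-eGFP reporter allele and drank 3% dextran sulfate sodium, which injures the colon epithelium, for 5 days and water for the 3 days after it, so no uninjured colon was measured. Each mouse gave 1 library of each population, which makes 6 groups of n = 4. The sample labels name 4 mice in each treatment, whereas the design text speaks of 3.

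Interferons are cytokines that tell cells of viruses and other microbes. Type I interferons bind the IFNAR1 and IFNAR2 chains and act through a complex that includes STAT2 and IRF9 and binds the interferon-stimulated response element (ISRE). Interferon gamma, made by T cells and natural killer cells, binds IFNGR1 and IFNGR2 and acts on the gamma-activated site (GAS), and it induces IRF1 and the GTPases of the GBP and IRG families. Many genes answer to both kinds, and lymphocytes keep some of them on at rest.

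Promoters of 4 GTPase genes are shown because Gbp3 and Igtp lay lower in every ILC2 library than in any T cell library while the populations overlapped for Gbp2 and Irgm1, and that of Isg15 because its difference to NMUR1- cells ran the other way. RefSeq promoters of GRCm38.p6, from 250 bases before to 50 bases after a start, matched 28 of the 37 genes with 32 starts in all. The ISRE core, searched as GAAA, any 2 bases and GAAA again on both strands with overlapping matches allowed, was in 16 of these 32 windows, against 1131 of all 32851 promoters of that length (3.44%). A GAS, searched as TTCNNNGAA on both strands, was in 8 of the 32 windows (25.0%), against 8.3% of all promoters. The lines below give the 150 bases before the start, 5′ to 3′ on the strand of the gene, with ISRE core matches in capitals. Gbp3 (chr3:142559894-142560043, plus strand) and Gbp2 (chr3:142620513-142620662, plus strand) code for guanylate-binding proteins, which attack the membranes around intracellular microbes. Igtp (chr11:58199406-58199555, plus strand) and Irgm1 (chr11:48871421-48871570, minus strand) code for immunity-related GTPases of the same defence, IRGM1 being a regulator of the others. Isg15 (chr4:156200819-156200968, minus strand) codes for a ubiquitin-like protein that is attached to other proteins.
Gbp3: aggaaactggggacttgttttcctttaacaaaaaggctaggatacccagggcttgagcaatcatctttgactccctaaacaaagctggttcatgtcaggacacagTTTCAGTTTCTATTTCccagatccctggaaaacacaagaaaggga
Gbp2: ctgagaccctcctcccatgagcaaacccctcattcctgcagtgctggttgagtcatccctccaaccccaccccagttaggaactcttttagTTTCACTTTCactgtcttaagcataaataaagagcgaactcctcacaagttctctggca
Igtp: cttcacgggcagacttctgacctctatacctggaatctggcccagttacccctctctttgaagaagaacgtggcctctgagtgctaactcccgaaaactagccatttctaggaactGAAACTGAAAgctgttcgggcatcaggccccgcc
Irgm1: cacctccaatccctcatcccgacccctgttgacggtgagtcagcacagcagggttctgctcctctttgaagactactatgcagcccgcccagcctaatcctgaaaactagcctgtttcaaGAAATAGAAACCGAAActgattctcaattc
Isg15: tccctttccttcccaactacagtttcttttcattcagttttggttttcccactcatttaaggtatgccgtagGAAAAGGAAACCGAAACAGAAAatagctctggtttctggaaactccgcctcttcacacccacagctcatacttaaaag
Gbp3 and Irgm1 held 2 overlapping matches each, Gbp2 and Igtp 1 each, and Isg15 3 overlapping ones that begin 78, 72 and 66 bases before the start. Gbp3 has a second start in the table whose window held none. The GAS search found 1 match in the window of Igtp, which is not in capitals, and 0 in those of Gbp2, Gbp3, Irgm1 and Isg15. A match describes letters and is no binding site.

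Library totals ran from 8485266 to 17854961 counts. Levels are given in CPM, counts per 1e+06 counts of the library after TMM scaling (trimmed mean of M values). T cell markers (Cd3e, Cd3d, Cd3g, Cd4, Cd5 and Lat) summed to 220 to 423 CPM in ILC2 libraries and to 3832 to 5301 CPM in T cell libraries of both kinds, and the 9 ILC2 markers to 10735 to 13853 CPM in ILC2 libraries. The sum of these 9 was 2668 to 4721 CPM in NMUR1+ libraries, against 996 to 1765 CPM in NMUR1- libraries. Immunoglobulin genes, which none of these cells transcribe, took 0.784% to 30.4% of the counts of NMUR1+ libraries, over 20% in mice 1, 4, 5 and 7, against 0.146% to 5.58% in NMUR1- libraries and 0.0241% to 7.93% in ILC2 libraries. Macrophage and dendritic cell markers (10 of 10 measured) summed to 6171 to 15668 CPM in NMUR1+ libraries, 1657 to 4619 CPM in NMUR1- libraries and 1614 to 6589 CPM in ILC2 libraries. In such bulk libraries, a higher share of cells that express a gene and more RNA per cell cannot be told apart.

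**Figure D1:**
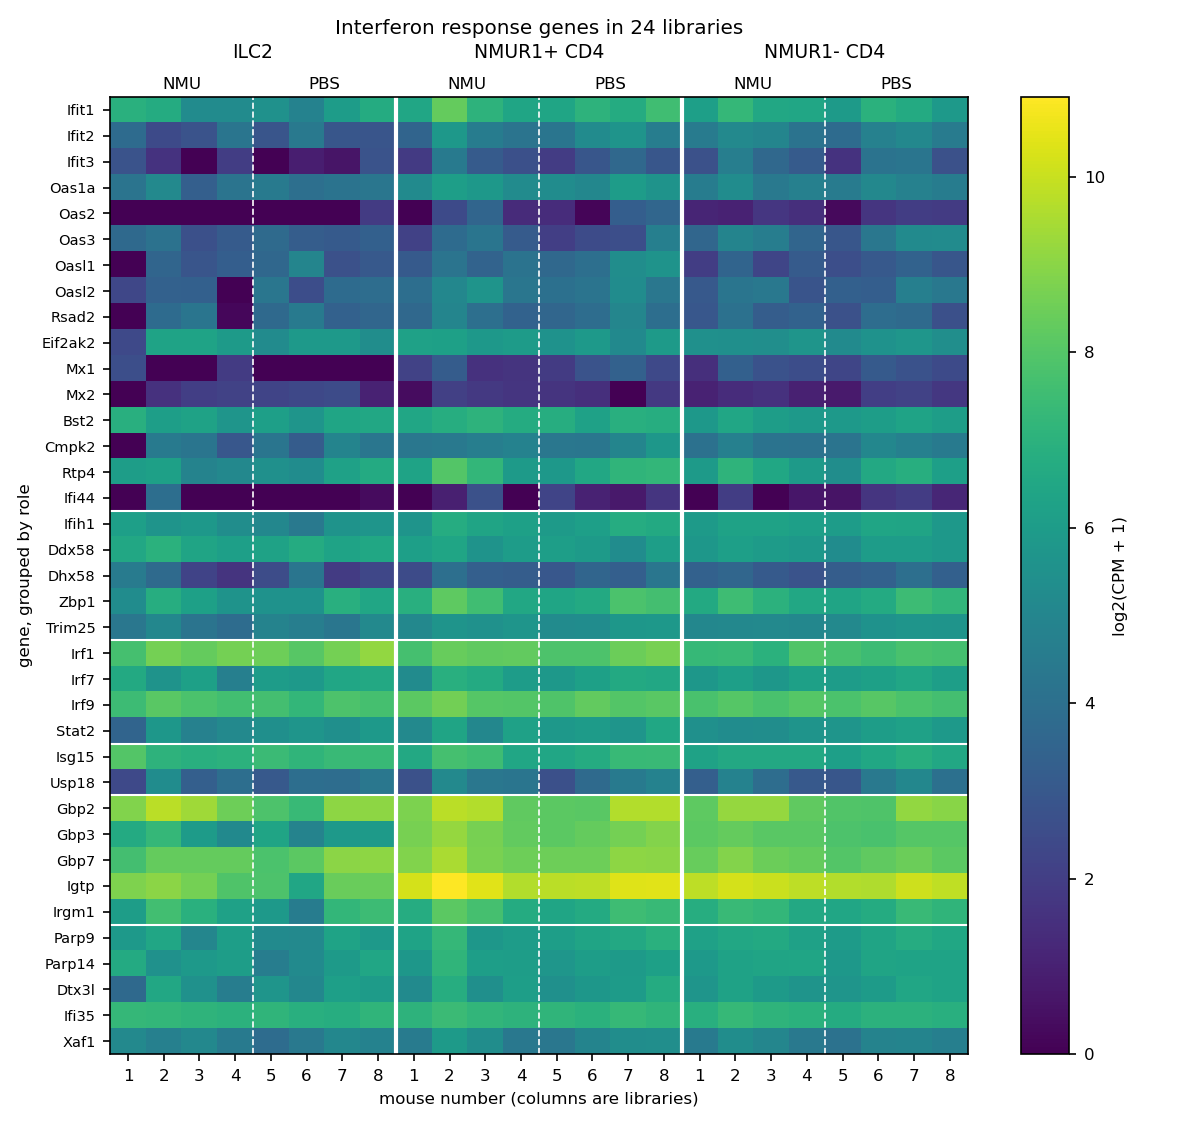
Expression of the 37 genes in the 24 libraries as log2(CPM + 1), columns being libraries by population, treatment and mouse, and rows genes by role. The GTPases Gbp2, Gbp7 and Igtp are among the brightest rows, and Mx1, Mx2, Oas2 and Ifi44 the darkest.

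The module was expressed in every library and was led by a few genes. The summed level of the 37 genes ran from 2005 to 4163 CPM in ILC2, from 3584 to 7769 CPM in NMUR1+ cells and from 3043 to 4822 CPM in NMUR1- cells. Gbp2, Irf1 and Gbp7 made up 38.2% of the sum in ILC2, and Igtp, Gbp2 and Gbp7 made up 44.5% in NMUR1+ cells and 44.0% in NMUR1- cells. Per kilobase of exon, Isg15 was the highest of the 37 in ILC2 at 209 ± 55.4 CPM per kb, and Igtp in NMUR1+ cells at 602.7 ± 179.9 and in NMUR1- cells at 471 ± 69.9 CPM per kb (SD, n = 8 each). Mx1, Mx2, Oas2 and Ifi44 averaged under 6 CPM in each population. Mx1 and Mx2 belong to a family of antiviral GTPases, but the GRCm38.p6 annotation used here lists both as transcribed pseudogenes, and Oas2 codes for an RNA-sensing enzyme.

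Igtp, Gbp3 and other effector genes were lower in ILC2 than in NMUR1+ T cells. Of the 37 genes, 17 were lower in ILC2 and 1 was higher at an adjusted p under 0.05, 48.6% in all, against 38.6% of the 13509 genes tested (23.5% lower and 15.1% higher). The median log2 difference was -0.62 over the 37 genes and -0.10 over all genes. The 17 comprise 8 of 16 antiviral effectors (Ifit1, Ifit2, Oas1a, Oas2, Oasl2, Mx1, Bst2 and Rtp4), 3 of 5 sensors and partners (Ifih1, Zbp1 and Trim25), 2 of 4 transcription factors (Irf9 and Stat2), 3 of 5 GTPases (Gbp3, Gbp7 and Igtp) and Parp9. Ddx58 was the gene that was higher. Sums of the macrophage and dendritic cell markers and of the B and plasma cell markers had higher group medians in NMUR1+ than in ILC2 libraries. The part of such cells' RNA in these differences was not tested.

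Gbp3 had 99.8, 151, 62.6 and 35.0 CPM in ILC2 of NMU mice and 82.0, 28.7, 59.4 and 60.8 CPM in ILC2 of PBS mice. In NMUR1+ cells it had 412, 583, 404 and 308 CPM under NMU and 289, 318, 399.9 and 470.1 CPM under PBS, and in NMUR1- cells it ran from 219.7 to 319 CPM. Every ILC2 library thus lay below every T cell library. Gbp3 averaged 72.4 ± 39.1 CPM in ILC2 and 398 ± 97.2 CPM in NMUR1+ cells (SD, n = 8), a log2 difference of -2.48 (SE 0.24, adjusted p = 2.29e-08). Gbp3 (gene 55932, GRCm38.p6 chromosome 3, 142560016 to 142573213) lies near the related genes Gbp7 and Gbp2, and whether reads are split among them was not tested. Igtp (gene 16145, chromosome 11, 58199556 to 58207592) had 441, 518, 389 and 240.3 CPM in ILC2 of NMU mice and 231, 88.0, 338 and 344 CPM in ILC2 of PBS mice, against 797 to 1922 CPM in NMUR1+ cells and 780.0 to 1181 CPM in NMUR1- cells. The ranges did not overlap here either, and the log2 difference to NMUR1+ cells was -1.95 (SE 0.23, adjusted p = 8.44e-07). Igtp shares 162 bases of exon on the same strand with Irgm2, another GTPase gene, whose log2 difference was -2.09. These were the only 2 of the 37 genes whose ILC2 and NMUR1+ libraries did not overlap, both lower. That share is below the 10.2% of all genes (4.09% higher and 6.14% lower).

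Of the related GTPase genes, Gbp2 and Irgm1 did not share this gap. Gbp2 ran from 160.1 to 866 CPM in ILC2 with a median of 492, from 276 to 884 CPM in NMUR1+ cells with a median of 614, and from 239 to 579 CPM in NMUR1- cells with a median of 402. Its libraries overlapped in all 3 populations, and its log2 difference was -0.31 (SE 0.34) to NMUR1+ cells and 0.17 (SE 0.34) to NMUR1- cells. Irgm1 had -0.51 (SE 0.35) and -0.25 (SE 0.35) on the same scale. The promoters printed above hold ISRE core matches in all 4 genes, and that of Igtp alone among them holds a GAS match.

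**Figure D2:**
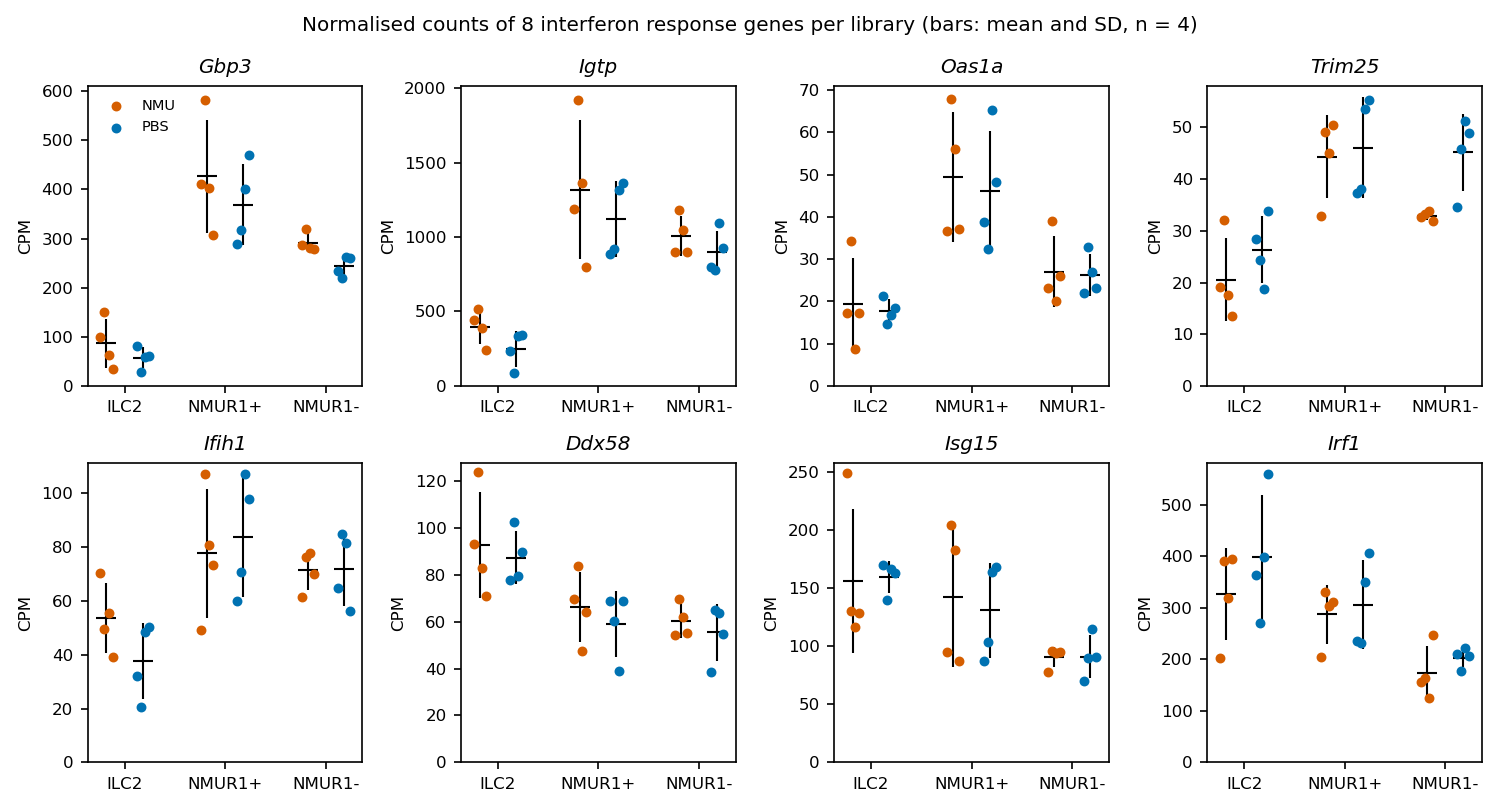
CPM of 8 interferon response genes in each library, NMU in orange left of PBS in blue within each population, with the mean and SD of 4 libraries. Gbp3 and Igtp lie below both T cell populations in all 8 ILC2 libraries, while Ddx58 and Isg15 lie above all NMUR1- libraries.

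Among the antiviral effectors, Oas1a, an enzyme that makes 2'-5' oligoadenylate and so activates the ribonuclease RNase L, ran from 8.83 to 34.4 CPM in ILC2 with a median of 17.3, and from 32.3 to 68.0 CPM in NMUR1+ cells with a median of 43.4. It was lower in ILC2 in all 8 mice, by a log2 difference of -1.36 (SE 0.23, adjusted p = 5.69e-05). Oas1a has a near-identical copy in Oas1g, so reads may be split between them. Ifit2, which binds viral RNA, averaged 10.1 ± 6.12 CPM in ILC2 and 29.2 ± 16.0 CPM in NMUR1+ cells (-1.52, SE 0.37, adjusted p = 0.00205). Its relative Ifit1 averaged 68.0 ± 37.01 CPM in ILC2 and 142 ± 80.9 CPM in NMUR1+ cells (-1.06, SE 0.35, adjusted p = 0.0187). Oasl2 averaged 9.17 ± 6.03 CPM in ILC2 and 25.6 ± 12.7 CPM in NMUR1+ cells (-1.59, SE 0.53, adjusted p = 0.0208). Rtp4, an interferon-induced chaperone of receptors, averaged 57.1 ± 25.3 CPM in ILC2 and 123 ± 65.6 CPM in NMUR1+ cells (-1.11, SE 0.33, adjusted p = 0.0102). The other 3 were Bst2 (-0.47), which tethers budding viruses to the cell, and the scarce Mx1 and Oas2. Mx1 had 0 counts in all 4 ILC2 libraries of PBS mice and Oas2 in all 4 of NMU mice, so that fitted values depend on the prior count. By the ratio of means over 8 libraries, Mx1 was 4.81-fold and Oas2 14.2-fold lower in ILC2 than in NMUR1+ cells.

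The sensors of foreign nucleic acid split by direction. Ddx58, which codes for RIG-I, a sensor of short double-stranded RNA, had 93.1, 123.6, 82.9 and 70.9 CPM in ILC2 of NMU mice and 77.8, 102.4, 79.4 and 89.5 CPM in ILC2 of PBS mice. In NMUR1+ cells it ran from 38.9 to 83.6 CPM with a median of 66.4, and in NMUR1- cells from 38.7 to 69.8 CPM with a median of 58.6. It was higher in ILC2 in 8 of 8 mice against either T cell population, by a log2 difference of 0.52 to NMUR1+ cells (SE 0.15, adjusted p = 0.00706) and of 0.64 to NMUR1- cells (SE 0.15, adjusted p = 0.00133). Ifih1, which codes for MDA5, the sensor of long double-stranded RNA, went the other way with 45.7 ± 15.2 CPM in ILC2, against 80.7 ± 21.6 CPM in NMUR1+ cells and 71.6 ± 10.2 CPM in NMUR1- cells. Its log2 difference was -0.84 (SE 0.19, adjusted p = 0.000966) and -0.67 (SE 0.19, adjusted p = 0.00594). Trim25, a ubiquitin ligase that assists RIG-I, averaged 23.5 ± 7.42 CPM in ILC2, against 45.2 ± 8.33 CPM in NMUR1+ cells (-0.96, adjusted p = 9.32e-05) and 39.0 ± 8.19 CPM in NMUR1- cells (-0.73, adjusted p = 0.00132). Zbp1, a sensor of Z-form nucleic acid that triggers cell death, averaged 70.6 ± 30.7 CPM in ILC2, against 162 ± 74.9 CPM in NMUR1+ cells (-1.20, adjusted p = 0.00307) and 126 ± 39.8 CPM in NMUR1- cells (-0.84, adjusted p = 0.0281). Dhx58, which codes for the RIG-I-like receptor LGP2, ran from 2.07 to 22.5 CPM in ILC2 and passed neither test.

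Of the remaining genes lower in ILC2 than in NMUR1+ cells, the log2 difference was -0.45 for Irf9, -0.62 for Stat2, -0.48 for Gbp7 and -0.67 for Parp9. IRF9 and STAT2 are parts of the factor that binds the ISRE, and PARP9 acts with the ubiquitin ligase DTX3L. Gbp7 shares 637 bases of exon on the same strand with the pseudogene Gm43802. Rtp4, named above, shares 296 bases in this way with the transcript Gm45338. Parp9 and Dtx3l overlap by 458 bases on opposite strands, and the library kit left no strand marks, so their reads cannot be told apart there. The 17 lower and 1 higher genes became 11 lower and 0 higher without mice 1, 4, 5 and 7, and 9 and 8 lower with 0 higher within NMU mice and within PBS mice. For these settings the share of all genes called was not computed. Gbp3, Igtp, Oas1a and Trim25 passed the test under all 17 alternatives. Stat2 was lost in 11 of them, Bst2 and Gbp7 in 8 each, Parp9 in 7, Ifit1 in 6 and Oasl2 in 3. Leaving out 1 mouse was enough in each of these: mouse 3, 4, 5, 6, 7 or 8 for Stat2, mouse 2, 3, 4, 5 or 7 for Bst2, mouse 1, 2, 3, 5, 6 or 7 for Gbp7, mouse 1, 2, 6 or 8 for Parp9, mouse 2, 3 or 6 for Ifit1 and mouse 6 or 7 for Oasl2. Rtp4 was lost without mouse 3.

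Against NMUR1- T cells, 11 genes were lower and 3 higher in ILC2, 37.8% of the 37, against 40.5% of all genes tested (24.1% lower and 16.4% higher). The share is close to that of all genes, and the median log2 difference was -0.41 over the 37 genes and -0.12 over all genes. Of the genes lower in this comparison, 9 of 11 were among the 17 lower against NMUR1+ cells: Ifit2, Mx1, Oas2, Ifih1, Parp9, Zbp1, Gbp3, Igtp and Trim25. Both comparisons use the same ILC2 libraries. Gbp3 differed by -1.91 (SE 0.23, adjusted p = 6.34e-07) and Igtp by -1.59 (SE 0.23, adjusted p = 8.28e-06) on the log2 scale. Ifit2 had 10.1 ± 6.12 CPM in ILC2, against 24.9 ± 7.62 CPM in NMUR1- cells (-1.29, SE 0.37, adjusted p = 0.00663). Ifit3, another Ifit protein gene with a near-identical copy in Ifit3b, averaged 2.29 ± 2.47 CPM in ILC2 and 11.4 ± 7.54 CPM in NMUR1- cells (-2.34, SE 0.78, adjusted p = 0.0189). Oas3 averaged 9.92 ± 3.59 CPM in ILC2 and 21.8 ± 11.8 CPM in NMUR1- cells (-1.12, SE 0.44, adjusted p = 0.0457), a call that was lost in 12 of 17 alternatives, among them the fit with the mouse as a block (-0.88, SE 0.41, adjusted p = 0.101). By the ratio of means, Mx1 was 5.48-fold and Oas2 5.36-fold lower in ILC2, and Parp9 had a log2 difference of -0.60.

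The genes that were higher in ILC2 than in NMUR1- cells were Irf1, Isg15 and Ddx58. Irf1 codes for a transcription factor that interferon gamma induces, and it had 203, 391, 318 and 395 CPM in ILC2 of NMU mice and 363, 270.1, 398 and 560.1 CPM in ILC2 of PBS mice. In NMUR1- cells it had 156, 163, 125.3 and 247 CPM under NMU and 209.6, 177, 221 and 206 CPM under PBS. It was higher in ILC2 in 8 of 8 mice (0.94, SE 0.17, adjusted p = 0.000129). Isg15 (gene 100038882, chromosome 4, 156199424 to 156200818) had 249.6, 130.4, 117 and 129 CPM in ILC2 of NMU mice and 170.3, 139.7, 166 and 163 CPM in ILC2 of PBS mice, against 78.0, 95.8, 94.1 and 94.9 CPM under NMU and 69.8, 89.7, 115 and 90.9 CPM under PBS in NMUR1- cells. For Isg15, every ILC2 library lay above every NMUR1- library (0.80, SE 0.19, adjusted p = 0.00179), as for Ddx58. With Gbp3 and Igtp lower, these made 4 genes without overlap, 2 higher and 2 lower, against 14.4% of all genes (5.86% higher and 8.53% lower). Usp18, which removes ISG15 from proteins, differed by -0.12 (SE 0.44) and did not pass.

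Irf1, Isg15, Ddx58, Gbp3 and Igtp passed under all 17 alternatives of this comparison. Parp9 was lost in 9 of them, Zbp1 in 6 and Ifit3 in 5. The mice whose removal ended the call were 1, 3, 4, 5, 6 or 8 for Parp9, 1, 3, 6 or 8 for Zbp1, 2, 6 or 7 for Ifit3, and 2, 3, 4, 6, 7 or 8 for Oas3. The 11 lower genes became 7 without mouse 6, 7 without mice 1, 4, 5 and 7, 4 within NMU mice and 5 within PBS mice. Here too the share of all genes called was not computed.

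**Figure D3:**
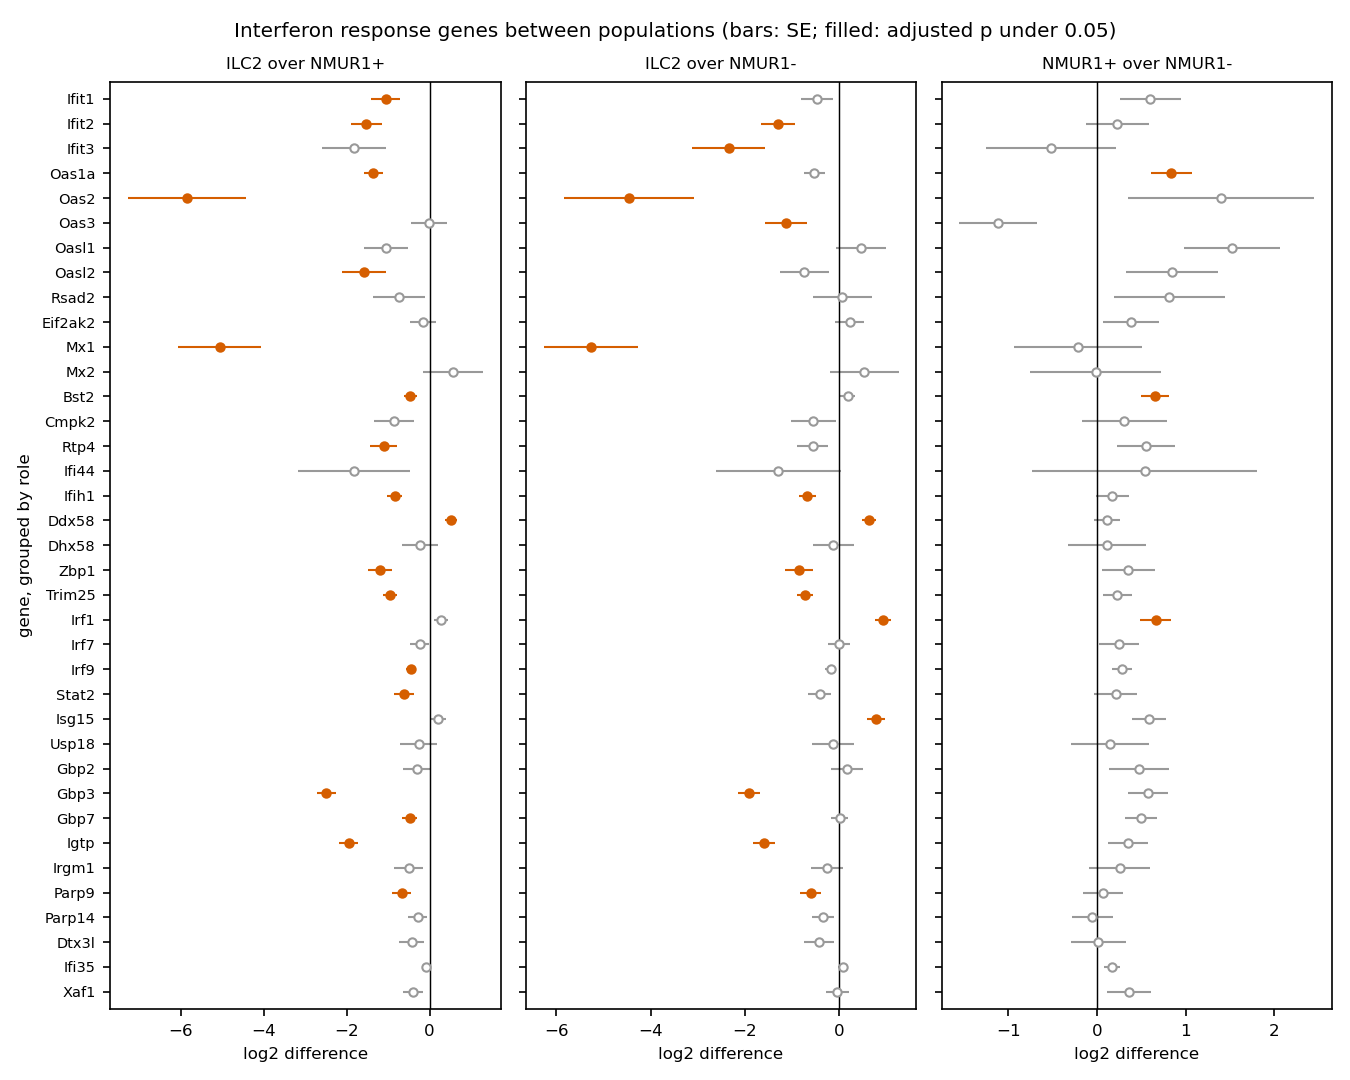
Fitted log2 differences of the 37 genes between populations, with SE, filled where the adjusted p is under 0.05. Most points lie left of 0 in ILC2 over NMUR1+ (33 of 37), and right of 0 in NMUR1+ over NMUR1- (32 of 37). The values of Mx1 and Oas2 depend on the prior count.

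Within the CD4 T cells, Bst2, Irf1 and Oas1a were higher in NMUR1+ than in NMUR1- cells and no member was lower. These 3 of 37 genes make 8.11%, against 8.31% of all genes tested (5.49% higher and 2.83% lower), so the share is near that of all genes. The median log2 difference was 0.31 over the 37 genes and -0.01 over all genes, and 32 of 37 values were above 0. Bst2 had 86.4, 111, 130.0 and 104 CPM in NMUR1+ cells of NMU mice and 111, 74.5, 118 and 109.8 CPM in those of PBS mice, against 56.1 to 85.5 CPM in NMUR1- cells with a median of 66.1. The groups overlapped, as they did for all 37 genes, against 3.3% of all genes without overlap (2.29% higher and 1.01% lower). NMUR1+ cells were higher in 8 of 8 mice (0.65, SE 0.16, adjusted p = 0.0104). Irf1 averaged 297 ± 68.4 CPM in NMUR1+ cells and 188 ± 39.8 CPM in NMUR1- cells (0.66, SE 0.17, adjusted p = 0.0178). Oas1a averaged 47.7 ± 13.8 CPM in NMUR1+ cells and 26.7 ± 6.34 CPM in NMUR1- cells (0.84, SE 0.23, adjusted p = 0.0221). Isg15 came next with 137 ± 48.0 CPM in NMUR1+ cells, against 91.0 ± 13.3 CPM in NMUR1- cells, and did not pass (adjusted p = 0.0587).

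Markers of other cells moved with this comparison: the sum of the macrophage and dendritic cell markers given above did not overlap between NMUR1+ and NMUR1- libraries. None of the 10 was at 0 in either. Most of that sum was Cd74. It averaged 9032 CPM in NMUR1+ cells of NMU mice and 10593 CPM in those of PBS mice, against 2450 and 2496 CPM in NMUR1- cells. Some single markers of that list overlapped, as Lyz2 did with 389 to 1401 CPM in NMUR1+ cells and 103 to 472 CPM in NMUR1- cells. Of the 6 plasmacytoid dendritic cell markers, which include Bst2 itself, the sum ran from 201 to 341 CPM in NMUR1+ and from 129 to 173 CPM in NMUR1- libraries. Most of it was Bst2, Irf8 and Ccr9. Siglech of that list had 0 counts in NMUR1- cells of PBS mice, and Klk1 had 0 counts in NMUR1+ cells of NMU mice. The 7 B and plasma cell markers summed to 1194 to 96671 CPM in NMUR1+ and to 212 to 10188 CPM in NMUR1- libraries. The part of these cells' RNA in the result was not tested. With the mouse as a block, Gbp2 (0.41, adjusted p = 0.00745) and Gbp7 (0.47, adjusted p = 0.0266) passed too, making 5. Without mice 1, 4, 5 and 7 the count was 1, which was Isg15 (0.77, adjusted p = 0.0295). Leaving out mouse 1 gave 5 higher genes, mouse 3 gave 0, mouse 5 gave 1, mouse 7 gave 1, and mouse 8 gave 1 higher and 1 lower. Bst2 was lost without mouse 3 or 5, Irf1 without mouse 2, 3, 7 or 8, and Oas1a without mouse 3, 5, 7 or 8. Within NMU mice and within PBS mice 0 passed. The share of all genes called under these alternatives was not computed.

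Of the genes that start the response, Ifng differed between ILC2 and the T cells. Of 12 interferon genes, Ifng, the gene for interferon gamma, was the only one with counts enough to test. Its mean was 10.2 ± 8.22 CPM in ILC2, with 60.3 ± 36.4 CPM in NMUR1+ T cells and 260.4 ± 222 CPM in NMUR1- cells (SD, n = 8 each). ILC2 were lower than NMUR1+ cells by -2.71 (adjusted p = 0.00583) and than NMUR1- cells by -4.81 (adjusted p = 7.46e-05) on the log2 scale. Between NMUR1+ and NMUR1- cells the log2 difference of Ifng was -2.09 and did not pass the threshold. The call against NMUR1+ cells was lost with limma voom and within PBS mice, its adjusted p running from 0.000274 to 0.166 over 17 alternatives. The type I gene Ifnb1 had 108 counts in 1 ILC2 library and 0 in the other 7, 69 counts over 7 NMUR1+ libraries and 14 counts over 3 NMUR1- libraries. The type I genes Ifna1, Ifna2, Ifna4, Ifna5 and Ifna13 had at most 1 count each in any population.

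Receptor genes differed in both directions. Ifngr1, for the chain that binds interferon gamma, had a mean of 1687 ± 265 CPM in ILC2, against 3045 ± 290.4 CPM in NMUR1+ cells and 3148 ± 415 CPM in NMUR1- cells, with log2 differences for ILC2 of -0.86 (adjusted p = 5.75e-08) and -0.91 (adjusted p = 1.84e-08). Its partner Ifngr2 was higher in ILC2, with 141 ± 36.5 CPM, against 77.8 ± 15.3 CPM in NMUR1+ cells (0.83, adjusted p = 1.78e-05) and 49.95 ± 8.73 CPM in NMUR1- cells (1.47, adjusted p = 4.11e-09). Ifnar2, for a chain of the type I receptor, averaged 88.1 ± 17.9 CPM in ILC2 and 52.0 ± 8.86 CPM in NMUR1- cells (0.75, adjusted p = 3.08e-05). Of the 5 receptor genes tested, 1 was higher and 2 lower in ILC2 than in NMUR1+ cells, and 3 were higher and 1 lower than in NMUR1- cells, against 38.6% and 40.5% of all genes called in these comparisons. In NMUR1+ over NMUR1- cells 3 were higher, Ifngr2 (0.64), Il10rb (0.60), a chain shared with the interferon lambda receptor, and Ifnar2 (0.46), against 8.31% of all genes called. Ifnar2 was lost without mouse 2, 3, 6, 7 or 8 and Il10rb without mouse 2 or 7, and all 3 within either treatment. The macrophage and dendritic cell markers given above were higher in the same libraries, and their part was not tested.

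Of 6 kinase and STAT genes below the receptors, 2 were higher and 2 lower in ILC2 than in NMUR1+ cells. Than in NMUR1- cells, 1 was higher and 2 lower. That is 66.7% and 50% of the list, against 38.6% and 40.5% of all genes. Stat3 was lower in ILC2 against both (-0.71 and -0.49, the second lost without mouse 4 or 5). Stat4 was higher against NMUR1+ cells (0.33), a call lost within PBS mice and without mice 1, 4, 5 and 7. The kinase gene Jak2 was higher against NMUR1+ (0.33) and NMUR1- cells (0.72).

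Of 11 inhibitors of interferon signalling, 3 were higher and 3 lower in ILC2 than in NMUR1+ cells, and 4 higher and 3 lower than in NMUR1- cells. That is 54.5% and 63.6% of the list, against 38.6% and 40.5% of all genes. Socs3, for a feedback inhibitor of cytokine receptors, was lower in ILC2 (-1.80, adjusted p = 0.000226, and -1.55, adjusted p = 0.000867), and so was the phosphatase gene Ptpn6 (-1.23 and -1.12). Irf2bp2, for a partner of the repressor IRF2, was higher (1.38 and 1.20). Socs1, for the inhibitor of JAK kinases that restrains interferon signalling, is named after its values were seen: it averaged 160.5 ± 55.6 CPM in ILC2, against 80.3 ± 17.0 CPM in NMUR1+ cells (0.97, adjusted p = 7.11e-05) and 72.7 ± 16.5 CPM in NMUR1- cells (1.12, adjusted p = 1.09e-05). Both Socs1 calls held under all 17 alternatives.

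Of 17 sensors and adaptors upstream of interferon that were tested, 2 were higher and 4 lower in ILC2 than in NMUR1+ cells, and 4 higher and 3 lower than in NMUR1- cells. These shares, 35.3% and 41.2%, are near the 38.6% and 40.5% of all genes. Cgas, for the sensor of DNA in the cytosol, averaged 17.9 ± 4.96 CPM in ILC2, against 6.81 ± 2.09 CPM in NMUR1+ cells (1.44, adjusted p = 5.40e-05) and 6.25 ± 1.503 CPM in NMUR1- cells (1.52, adjusted p = 2.32e-05). Tlr9, for an endosomal DNA receptor known from B cells and dendritic cells, had 0 counts in the 8 ILC2 libraries, 166 counts over 8 NMUR1+ libraries and 18 counts over 5 NMUR1- libraries. Against a floor of 3 counts over the 8 ILC2 libraries, it was at least 56.3-fold lower in ILC2 than in NMUR1+ cells. The same bound to NMUR1- cells was 5.17-fold. Sums of the B and plasma cell markers and of the macrophage and dendritic cell markers had higher group medians in NMUR1+ than in ILC2 libraries. The part of such cells' RNA in the Tlr9 counts was not tested. Tlr4, for the receptor of bacterial lipopolysaccharide, averaged 12.1 ± 6.11 CPM in ILC2 and 3.04 ± 2.13 CPM in NMUR1- cells (2.00, adjusted p = 0.0029).

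Among 72 further interferon-induced genes tested, 5 were higher and 31 lower in ILC2 than in NMUR1+ cells, with a median log2 difference of -0.47, against 15.1% higher, 23.5% lower and a median of -0.10 over all genes. Than in NMUR1- cells, 10 were higher and 23 lower, with a median of -0.28, against 16.4% higher, 24.1% lower and a median of -0.12 over all genes. Slfn1, for a Schlafen protein known from T cell quiescence, had 165 counts over 2 of 8 ILC2 libraries, and its mean was 64.3-fold lower than in NMUR1+ cells and 110-fold lower than in NMUR1- cells. Ifit1bl1, a relative of Ifit1, had 30 counts in 1 ILC2 library and was 54.9-fold and 111-fold lower by the same ratios. In NMUR1+ over NMUR1- cells 8 were higher and 1 lower (12.5%), against 8.31% of all genes. The chemokine gene Cxcl9 averaged 35.8 ± 32.5 CPM in NMUR1+ cells, against 7.89 ± 5.17 CPM in NMUR1- cells (2.18, adjusted p = 0.0221), Ifi205 54.0 ± 50.2 CPM in NMUR1+ cells, against 5.37 ± 4.19 CPM in NMUR1- cells (3.38, adjusted p = 0.0298) and Ifi207 55.98 ± 22.4 CPM in NMUR1+ cells, against 9.19 ± 2.48 CPM in NMUR1- cells (2.61, adjusted p = 0.0324). All 3 calls were lost without mice 1, 4, 5 and 7, within either treatment, and without mouse 5, 7 or 8. The macrophage and dendritic cell markers given above were higher in the same libraries, and their part in these values was not tested.

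Of 21 class I antigen presentation genes, 6 were higher and 4 lower in ILC2 than in NMUR1+ cells, and 10 higher and 2 lower than in NMUR1- cells. These are 47.6% and 57.1% of the list, against 38.6% and 40.5% of all genes. The class I gene H2-Q6 averaged 222 ± 36.0 CPM in ILC2, against 101 ± 13.6 CPM in NMUR1+ cells (1.13, adjusted p = 1.94e-05) and 76.0 ± 27.3 CPM in NMUR1- cells (1.54, adjusted p = 2.48e-07). H2-Q genes are near-identical copies, so reads may be split among them. Erap1, for a peptidase that trims antigens, was higher in ILC2 than in NMUR1+ cells (0.83, adjusted p = 9.66e-06), and Psmb9, for a subunit of the immunoproteasome, was lower (-0.65, adjusted p = 0.000281). In NMUR1+ over NMUR1- cells 5 were higher and 0 lower, among them H2-Q7 (0.51), H2-K1 (0.49) and H2-T23 (0.43), against 8.31% of all genes. H2-Q7 was lost without mouse 2, 3, 7 or 8, H2-T23 without mouse 2, 3, 6, 7 or 8, and all of these 3 within either treatment. The same macrophage and dendritic cell markers moved with them, and their part was not tested.

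NMU injection moved no member past the threshold in any population when each was fitted on its own 8 libraries. In ILC2, 34 of the 37 genes had counts enough to test (Mx1, Oas2 and Ifi44 had not) and 0 passed, against 0.66% of 11205 genes (0.402% higher and 0.259% lower). In NMUR1+ and in NMUR1- cells all 37 were tested and 0 passed, against 0% of all genes in both. DESeq2 and limma voom also called 0 members in each population. The fit of all 24 libraries called 1 in ILC2, Mx1 (adjusted p = 0.0102), whose counts lie in 2 of 8 ILC2 libraries, so that its fitted value depends on the prior count. At an unadjusted p under 0.05 there were 0, 1 and 3 members in ILC2, NMUR1+ and NMUR1- cells, and 1391, 307 and 877 of all genes. The median log2 difference of the members was 0.08, 0.12 and -0.01, and that of all genes -0.03, 0.00 and 0.01.

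**Figure D4:**
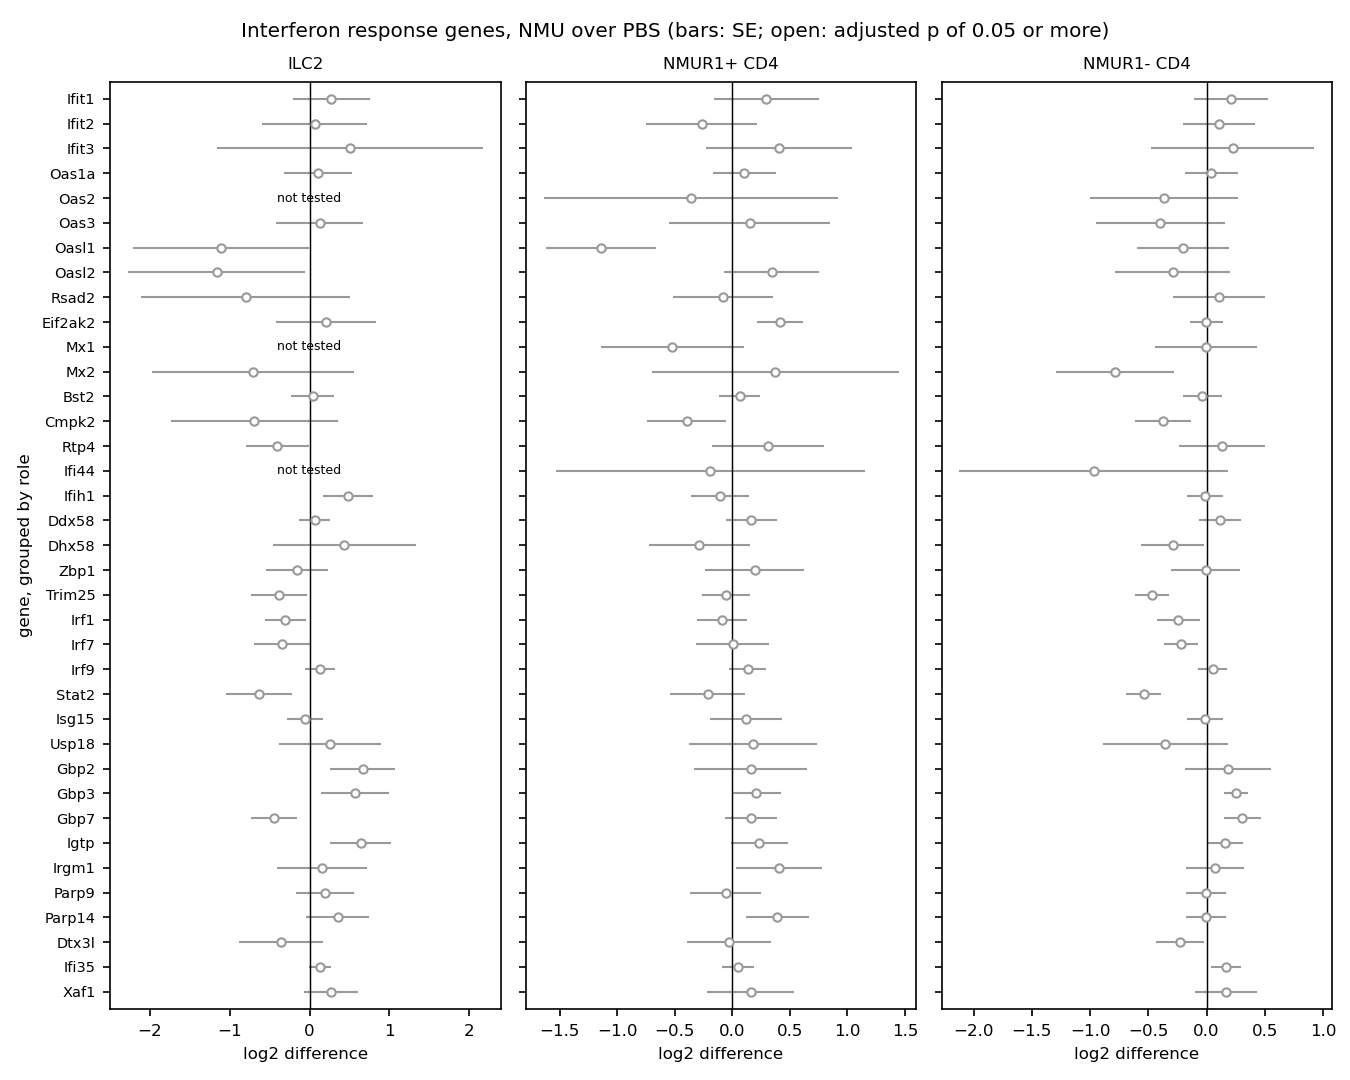
Fitted log2 differences of the 37 genes between NMU and PBS in each population, with SE. All points are open, since no adjusted p was under 0.05, and the SE of scarce genes such as Mx2 and Rsad2 in ILC2 exceeds 1.

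In ILC2 the smallest p-values belonged to Igtp and Gbp2. Gbp2 had 459, 866, 662.7 and 359 CPM in ILC2 of NMU mice, against 231, 160.1, 525 and 539 CPM in ILC2 of PBS mice (0.66, SE 0.40, adjusted p = 0.580). Igtp followed with the values given above (0.64, SE 0.38, adjusted p = 0.567), and Ifih1 had 70.5, 49.7, 55.4 and 39.2 CPM under NMU and 32.2, 20.4, 48.3 and 50.2 CPM under PBS (0.48, SE 0.31, adjusted p = 0.614). Groups overlapped for all 3. Stat2 averaged 31.4 ± 18.2 CPM in ILC2 of NMU mice and 48.2 ± 7.45 CPM in those of PBS mice (-0.64, SE 0.41, adjusted p = 0.613), and Gbp7 289.7 ± 61.8 CPM under NMU and 388 ± 157 CPM under PBS (-0.44, SE 0.29, adjusted p = 0.615). No member had groups without overlap in ILC2, against 9.36% of all genes (4.58% higher and 4.78% lower).

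In NMUR1- cells, Stat2 had 44.1, 38.9, 39.3 and 49.3 CPM under NMU, against 49.96, 66.0, 75.1 and 57.2 CPM under PBS (-0.54, SE 0.15, adjusted p = 0.577). Trim25 had 32.6, 33.2, 33.7 and 31.9 CPM under NMU, against 34.6, 45.9, 51.2 and 49.0 CPM under PBS (-0.47, SE 0.15, adjusted p = 0.577). Gbp3 had 287, 319, 281 and 279.5 CPM under NMU, against 235, 219.7, 262 and 261 CPM under PBS (0.25, SE 0.10, adjusted p = 0.669). In these 3 genes the groups did not overlap, 2 lower and 1 higher under NMU, against 4.48% of all genes without overlap (1.91% higher and 2.57% lower). Gbp7 (0.31, SE 0.16) and Cmpk2 (-0.37, SE 0.24), the gene of a mitochondrial nucleotide kinase, came next.

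In NMUR1+ cells the smallest p belonged to Oasl1, a translational repressor of Irf7 in mice, which had 7.42, 17.5, 10.1 and 16.9 CPM under NMU, against 11.9, 14.6, 40.2 and 48.3 CPM under PBS (-1.14, SE 0.48, adjusted p = 1.00). Mice 7 and 8 were high and the groups overlapped. Eif2ak2, for the kinase PKR that stops translation on double-stranded RNA, had a log2 difference of 0.41 (SE 0.20), Parp14 0.39 (SE 0.27), Irgm1 0.40 (SE 0.37) and Cmpk2 -0.40 (SE 0.34). No member had groups without overlap, against 1.87% of all genes (1.04% higher).

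Differences of the NMU effect between populations passed in 0 of 37 members for each of the 3 pairs, against 0.725% of all genes for ILC2 over NMUR1+ (0.222% higher and 0.503% lower), 0.533% for ILC2 over NMUR1- (0.155% higher and 0.378% lower) and 0% for NMUR1+ over NMUR1-. At an unadjusted p under 0.05 there were 3, 3 and 0 members, and 1789, 1528 and 157 of all genes. The 3 were Mx1, Oas2 and Ifi44, which rest on few ILC2 libraries. Mx1 had 5.14 CPM in mouse 1 and 2.72 CPM in mouse 4, 90 counts in all, and 0 counts in the other 2 NMU and all 4 PBS libraries of ILC2. Against a floor of 3 counts over the 4 PBS libraries this is at least 31.7-fold higher under NMU, and the adjusted p of the difference was 0.0593 and 0.0966 against NMUR1+ and NMUR1- cells. Over 14 alternatives it ran from 0.00115 to 0.296 and from 0.00374 to 0.418, and it was under 0.05 with DESeq2 and without mouse 2. Oas2 had 35 counts in mouse 8 and 0 in the other 7 ILC2 libraries, and Ifi44 had 14.5 CPM in mouse 2, 0.232 CPM in mouse 8 and 0 in the other 6. For Gbp7 and Ifih1 the difference of effects was -0.58 (SE 0.35) and 0.62 (SE 0.37) against NMUR1+ cells, and -0.73 (SE 0.35) and 0.52 (SE 0.37) against NMUR1- cells. The adjusted p of these 4 values ran from 0.443 to 0.691. Between the T cell populations, the smallest p belonged to Trim25 with 0.41 (SE 0.33, adjusted p = 1.00), followed by Oasl1 with -0.95 (SE 1.07).

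In the pathway lists, 1 of 66 further interferon-induced genes (1.52%) and 1 of 21 class I genes (4.76%) rose under NMU in ILC2, against 0.66% of all genes. No gene of these lists passed in NMUR1+ cells (0 of 132 tested) or in NMUR1- cells (0 of 128), against 0% of all genes in both. Slfn2, for a Schlafen protein of lymphocyte quiescence, averaged 203 ± 57.6 CPM in ILC2 of NMU mice and 83.1 ± 11.3 CPM in those of PBS mice (1.26, SE 0.22, adjusted p = 0.0382). The class I gene H2-T22 averaged 248 ± 15.51 CPM in ILC2 of NMU mice and 125.4 ± 18.6 CPM in those of PBS mice (0.96, SE 0.14, adjusted p = 0.0195). The Slfn2 call was lost with limma voom and without mouse 1, 2, 3, 5, 6, 7 or 8, and the H2-T22 call without mouse 3, 4, 5, 7 or 8. The difference of the NMU effect between ILC2 and the T cells did not pass for Slfn2 (adjusted p = 0.0718 and 0.0727) or for H2-T22 (adjusted p = 0.0813 and 0.109).

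Within a treatment, some mice stood high or low in more than 1 population. How often each mouse was highest or lowest over all genes was not computed. Mouse 2 was the highest of the 4 NMU mice for 19 members in ILC2, 29 in NMUR1+ and 26 in NMUR1- cells, and for 12 members in all 3 populations (Ddx58, Dtx3l, Gbp2, Gbp3, Igtp, Irf9, Irgm1, Oas1a, Oasl1, Rtp4, Usp18 and Zbp1). In ILC2, mouse 1 of the NMU mice was the highest for 11 members and the lowest for 14. Among the PBS mice, mouse 5 was the lowest for 12 members in ILC2, 25 in NMUR1+ and 28 in NMUR1- cells, 8 of them in all 3 populations. In ILC2 mouse 6 was the lowest more often, for 17 members, and had the lowest sum, 2005 CPM against 2420 CPM in mouse 5. Mouse 7 was the highest PBS mouse for 27 members in NMUR1- cells, and mouse 8 for 18 members in ILC2, 21 in NMUR1+ and 1 in NMUR1- cells. In mouse 2, Zbp1 had 109.9 CPM in its ILC2, 291 CPM in its NMUR1+ cells and 185 CPM in its NMUR1- cells. In mouse 5 the values of Zbp1 were 45.9 CPM for ILC2, 85.3 CPM for NMUR1+ cells and 81.3 CPM for NMUR1- cells. Gbp2 of the PBS mice had 231 CPM for ILC2, 281 CPM for NMUR1+ and 246 CPM for NMUR1- cells in mouse 5, and 525, 811 and 556 CPM for the same populations in mouse 7. Of the mice with over 20% immunoglobulin counts in NMUR1+ cells, mice 1, 4 and 5 had low summed levels of the members there (4305, 3779 and 3584 CPM), and mouse 7 a higher one (5723 CPM). Mouse 6, with 2.29% immunoglobulin counts, had 3916 CPM. The part of the immunoglobulin RNA in these levels was not tested. The coefficient of variation among the 4 libraries of a group, over members at 10 CPM or more, had a median of 39.4% in ILC2, 35.7% in NMUR1+ and 21.5% in NMUR1- cells.

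**Figure D5:**
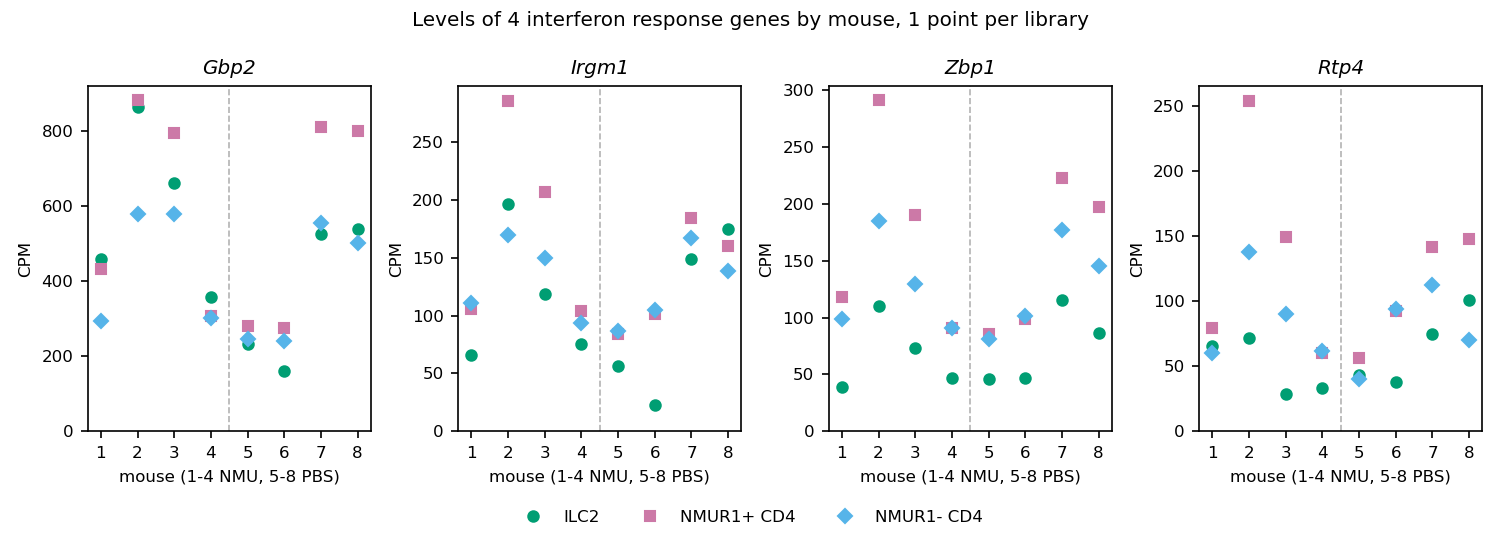
CPM of Gbp2, Irgm1, Zbp1 and Rtp4 in each library by mouse, with 1 symbol per population, NMU mice left of the dashed line and PBS mice right of it. Mouse 2 is the highest NMU mouse in each population for all 4 genes, and mice 7 and 8 lie above mice 5 and 6 in most.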

How the data were processed

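RNA was sequenced from 24 libraries, 3 sorted colon populations from each of 8 mice. Per the labels' protocols, ILC2 were sorted as CD45+ Lin- CD90.2+ CD127+ KLRG1+ cells and T cells as CD45+ CD3+ CD5+ CD4+ cells, and a NEBNext Single Cell/Low Input kit, without strand or molecule marks, served for the libraries. The submitters' processing notes name STAR 2.5.3 and mm10. For counter, annotation and strand setting, nothing is given in the sources used here. As input, the authors deposited whole-number read counts of each gene in each library, and 0 columns were left unused. Of 27179 identifiers, 25275 matched a RefSeq symbol. Gene coordinates, gene types and promoters are from RefSeq, and exon lengths and exon overlaps from GENCODE, all of GRCm38.p6.

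Counts were tested with edgeR 4.0.16 (R 4.3.3) by robust quasi-likelihood fits after filterByExpr with a minimum count of 10 and TMM scaling (factors 0.719 to 1.16). P-values were adjusted by Benjamini-Hochberg over all genes, with a threshold of 0.05. NMU and PBS mice were compared in fits of 8 libraries, 1 per population, and populations and differences of NMU effects in 1 fit of 24 libraries with 6 group means. SE is that of the log2 difference. Code was tested on simulated data. Replicates differed beyond sampling noise (lowest chi-square per degree of freedom 16.55), so none was a copy of another. This does not show that libraries are independent. Each library was counted as 1 sample, and the main fit of 24 libraries did not take the mouse into account. Alternatives used DESeq2 1.42.0 and its size factors, limma voom 3.58.1, no filter on low counts, and no immunoglobulin genes (261 left out). Others left out each mouse, took the mouse as a block, or used the contrast of 1 treatment only within the same fit. The set without mice 1, 4, 5 and 7 was chosen after seeing the data.

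The 3 libraries of a number come from the same mouse, so the numbers pair the populations. Of 24 same-mouse pairs, 11 had a correlation of deviations from the group means above 0.1 (range -0.0122 to 0.512, median 0.0836), and in 18 it was the highest with the own mouse. The members and lists were chosen with earlier results of these data known. Genes are named with full statistics by rule: up to 8 members per direction with the largest log2 difference past the threshold and at least 10 CPM in the higher population, the 5 members of smallest p if under 5 passed, and up to 3 genes per list. Other members past the threshold are listed by name, and some list genes are not reported here. Reads are amplified copies, so the floor of 3 counts covers counting error only.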

Additional observations from a re-analysis of the deposited data

Results flagged for a closer look

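In 15 of 228 sets of 4 libraries, 12 high and 3 low, 1 library stood apart from the other 3 by Dixon's test at the 95% level. Chance gives this in about 1 of 20 sets of normally distributed values, which CPM need not be. A set where only 1 library has counts is always flagged, as for Oas2 and Ifi44 in ILC2. Mx1 in ILC2 of PBS mice and Oas2 in ILC2 of NMU mice had 0 counts and could not be flagged. The sets include the sum over the 37 members. In ILC2 of NMU mice, mouse 1 had 250 CPM of Isg15, with the others at 117 to 130.4 CPM, and 197 CPM of Gbp7, with the others at 320 to 322 CPM. Mouse 2 had 14.5 CPM of Ifi44 in the same set, with the others at 0. In ILC2 of PBS mice, mouse 6 had 20.1 CPM of Ifit2 (others 6.25 to 6.65) and 18.1 CPM of Dhx58 (others 2.68 to 4.75). Mouse 8 there had 6.02 CPM of Ifit3 (others 0 to 0.871), 2.7 CPM of Oas2 (others 0) and 0.232 CPM of Ifi44 (others 0). In NMUR1+ cells of NMU mice, mouse 3 had 5.6 CPM of Ifi44 (others 0 to 0.949). In those of PBS mice, mouse 7 had 38.4 CPM of Oasl2 (others up to 18.9) and 31.1 CPM of Rsad2 (others 11.1 to 14.3), and mouse 8 had 25 CPM of Oas3 (others 3.04 to 5.17). In NMUR1- cells of NMU mice, mouse 1 had 78 CPM of Isg15 (others 94.1 to 95.8) and mouse 2 had 26.1 CPM of Cmpk2 (others 15.8 to 16.8). In NMUR1- cells of PBS mice, mouse 5 had 54.8 CPM of Parp14 (others 79.6 to 82.2).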

How the results depend on the processing

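Counts of members past the threshold moved with the setting. The share of all genes called was computed in the main fit only, so the other counts cannot be set against all genes. For ILC2 over NMUR1+ cells (18 members, 1 higher and 17 lower), NMU mice only gave 9 (0 and 9), PBS mice only 8 (0 and 8), and the set without mice 1, 4, 5 and 7 gave 11 (0 and 11). Leaving out 1 mouse gave 13 to 17, with 1 higher throughout and 12 to 16 lower. For ILC2 over NMUR1- cells (14 members, 3 higher and 11 lower), NMU mice only gave 7 (4 lower), PBS mice only 8 (5 lower), the set without mice 1, 4, 5 and 7 had 7 lower, and leaving out 1 mouse gave 10 to 16 (3 to 4 higher, 7 to 13 lower). For NMUR1+ over NMUR1- cells (3 higher), DESeq2 gave 7, the mouse as a replicate block 5, NMU mice only 0, PBS mice only 0, the set without mice 1, 4, 5 and 7 gave 1, and leaving out 1 mouse gave 0 to 5 (0 to 5 higher, 0 to 1 lower). The block moved no other count by over 1.5 times, and among members it ended the Oas3 call for ILC2 over NMUR1- cells. Settings that leave out mice hold fewer samples. NMU mice only and PBS mice only are contrasts within the fit of all 24 libraries, each using the groups of 1 treatment. Why the counts moved was not tested. NMU against PBS in ILC2 gave 1 member in the fit of all 24 libraries (Mx1) and 0 to 0 without 1 mouse. For the difference of NMU effects between ILC2 and either T cell population, DESeq2 gave 1 member and leaving out 1 mouse 0 to 1, in each case Mx1. Signs turned for Cmpk2 under NMU in NMUR1+ cells without mouse 8, with -0.58 to 0.039 over the mice left out. They turned for the Ifi44 difference of effects, ILC2 over NMUR1+, without mouse 2 (-2.85 to 8.60), and for the Oas2 difference, ILC2 over NMUR1-, without mouse 8 (-6.44 to 0.18). In ILC2, the SE under NMU was over 1 on the log2 scale for Ifit3, Mx2, Oasl1, Oasl2, Rsad2 and Cmpk2, so changes of that size were not detectable in them.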
